A study of Mus musculus with 6 samples.

Results

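Tumor-infiltrating CD8 T cells with 2 productive T cell receptor (TCR) alpha chains beside a single beta chain made up 1192 of the 13840 tumor cells with a productive TCR contig. They were chosen by the number of contigs, the assembled chain sequences, of each cell barcode in both tumor TCR libraries. A 2-alpha cell had exactly 1 productive beta (TRB) and exactly 2 productive alpha (TRA) contigs, and the 10387 cells with exactly 1 of each are called 1-alpha cells. The 2-alpha cells numbered 1059 of 7893 cells in the CD8-IFNγRKO library and 133 of 5947 in the control library. Counts of alpha chains chose these cells, so every count of alphas is a description, and the gene expression is the readout that the choice did not use.

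The mice carried B16-OVA tumors, a melanoma line that makes ovalbumin, and the tumors were taken at day 12. Control mice were CD8-Cre Rosa26Tomato, and CD8-IFNγRKO mice were CD8-Cre IFNgR1flox/flox Rosa26Tomato, in which the IFNγ receptor gene *Ifngr1* is deleted in cells where CD8-Cre has been active. Both genotypes carry the Cre and the Tomato reporter, and cells were sorted on CD45, CD3, CD8 and Tomato, so cells that never had Cre activity are not in the data. Cells of 3 mice of a genotype went into 1 library, which gave a 5′ transcriptome and a TCR table from the same droplets, and no label ties a cell to an animal. With 1 library per genotype there is no replicate spread and no test, the intervals are exact and cover counting error only, and a difference between genotypes cannot be told apart from one between libraries or animals.

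Each T cell makes its receptor by joining a V and a J segment for the alpha chain and a V, a D and a J segment for the beta chain. Rearrangement of the beta gene is usually stopped once 1 allele has given a working chain. The alpha gene is handled otherwise: both alleles can rearrange, and rearrangement goes on to further V and J segments until the thymocyte is positively selected, so some mature T cells carry a pair of in-frame alphas. The joint of V and J, the CDR3, varies widely between thymocytes, and its nucleotide sequence is used here to group cells. Here a clone is the set of cells of a library with the same TRB CDR3 nucleotide sequence. Cells with the same beta can carry different alphas, as in KO1 below, so such a clone need not descend from a single mature T cell.

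Cells passing the transcriptome filters carried the markers of their labelled type, but the filters fixed part of this. Each kept cell had to have a UMI of *Cd2*, *Cd8a* and *Cd8b1*, which are among the 5 CD8 T cell markers. Levels are in CPM, UMIs (tags of single transcript molecules) scaled to the same total in every group. The 5 CD8 T cell markers summed to 4247 CPM in 2-alpha and 3888 in 1-alpha cells of the CD8-IFNγRKO library, and to 5107 and 5283 in the control library. *Ifngr1* stood at 231 CPM in 2-alpha and 237 in 1-alpha cells of the CD8-IFNγRKO library against 911 and 748 in the control library. Macrophage or dendritic cell markers summed to 249.6 CPM in control 2-alpha cells and to 31.0 in control 1-alpha cells, with *Adgre1* and *C1qa* at 0, and 1 cell held nearly all of them, as given with the expression below. In the CD8-IFNγRKO library *Tcrg-C1*, the first gamma constant gene, made up nearly all of a gamma delta sum of 74.6 CPM in 2-alpha cells, against 2.59 in 1-alpha cells. The B, NK, CD4 T and melanoma lists summed to at most 13.0 CPM in any group. The cells passing the transcriptome filters held 93995655 UMIs in the CD8-IFNγRKO library and 59497796 in the control library. The TCR tables shared 60 barcodes, no TRB CDR3 sequence and 13 TRA CDR3 sequences.

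The receptors of the largest two-alpha clones are shown first, because most 2-alpha cells belonged to them. A two-alpha clone had at least 3 cells, with the same pair of alphas in at least 2 of them and in at least 50% of all its cells. KO1 to KO5 are from the CD8-IFNγRKO library and C1 to C4 from the control library, in order of size, and alpha A is the one with more UMIs in sum. Each CDR3 is given from the V end to the J end, with capitals for the bases between the usual V and J ends over at least 5 different CDR3s of the same segment, that is, the joint.
KO1 beta: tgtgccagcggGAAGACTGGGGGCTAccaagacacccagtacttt
KO1 alpha A: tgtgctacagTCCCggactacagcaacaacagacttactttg
KO1 alpha B: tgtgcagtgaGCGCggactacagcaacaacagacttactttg
KO1 other alpha: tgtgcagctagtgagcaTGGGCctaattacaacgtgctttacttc
KO2 beta: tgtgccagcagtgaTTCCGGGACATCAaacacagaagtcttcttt
KO2 alpha A: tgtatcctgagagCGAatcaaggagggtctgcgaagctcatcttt
KO2 alpha B: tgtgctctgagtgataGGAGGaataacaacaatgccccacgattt
KO3 beta: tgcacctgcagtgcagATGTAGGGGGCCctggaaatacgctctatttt
KO3 alpha A: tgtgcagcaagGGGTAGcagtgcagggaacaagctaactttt
KO3 alpha B: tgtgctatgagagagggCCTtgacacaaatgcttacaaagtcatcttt
KO4 beta: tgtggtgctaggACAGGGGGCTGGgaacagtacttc
KO4 alpha A: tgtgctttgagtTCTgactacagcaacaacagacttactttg
KO4 alpha B: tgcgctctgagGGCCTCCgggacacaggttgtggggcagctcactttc
KO5 beta: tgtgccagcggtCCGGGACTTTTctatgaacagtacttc
KO5 alpha A: tgtgctactgAGgcttacaaagtcatcttt
KO5 alpha B: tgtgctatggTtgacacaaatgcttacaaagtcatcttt
C1 beta: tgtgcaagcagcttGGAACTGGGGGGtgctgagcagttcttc
C1 alpha A: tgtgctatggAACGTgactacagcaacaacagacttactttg
C1 alpha B: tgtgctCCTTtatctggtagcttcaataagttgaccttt
C2 beta: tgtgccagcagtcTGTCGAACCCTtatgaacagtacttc
C2 alpha A: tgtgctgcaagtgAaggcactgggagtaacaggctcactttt
C2 alpha B: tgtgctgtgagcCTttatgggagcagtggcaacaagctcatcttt
C3 beta: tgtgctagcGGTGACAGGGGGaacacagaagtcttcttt
C3 alpha A: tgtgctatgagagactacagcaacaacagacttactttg
C3 alpha B: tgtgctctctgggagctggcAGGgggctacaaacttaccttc
C4 beta: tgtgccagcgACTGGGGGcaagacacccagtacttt
C4 alpha A: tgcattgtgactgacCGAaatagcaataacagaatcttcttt
C4 alpha B: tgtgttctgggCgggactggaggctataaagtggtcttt

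KO1 paired a TRBV12-2+TRBV13-2 and TRBJ2-5 beta with TRAV8D-2 and TRAV7D-5, and both of its alphas ended in TRAJ7. The alpha joints of KO1 held 4 such bases each, and the beta joint held 15. KO2 paired TRBV13-3 and TRBJ1-1 with TRAV21-DV12/TRAJ57 and TRAV6-7-DV9/TRAJ43, and KO3 paired TRBV1 and TRBJ1-3 with TRAV14D-2/TRAJ17 and TRAV16N/TRAJ30. C1 paired TRBV16 and TRBJ2-1 with TRAV13N-1/TRAJ7 and TRAV13N-1/TRAJ4. Alpha A of C3, TRAV16N/TRAJ7, had no base outside the usual V and J ends. In RefSeq's annotation of the mouse genome GRCm38.p6, TRAV8D-2 lies at chr14:53042428-53042891, TRAV7D-5 at chr14:52835861-52836387 and TRAJ7 at chr14:54211470-54211528. TRAV13N-1 lies at chr14:53162399-53162910 and TRAJ4 at chr14:54216291-54216353. The J segments are numbered downward along the chromosome, from TRAJ57 of KO2 at chr14:54158507-54158569, and the TRBJ2-5 segment of KO1 lies on another chromosome, at chr6:41543453-41543501. Many mouse TRAV genes have near-identical copies, so the copy named by the assembly is uncertain.

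By cell, the share with 2 alphas was far larger in the CD8-IFNγRKO library, whereas by clone the libraries were close. Of the cells with 1 beta and 1 or 2 alphas, 1059 of 6691 had 2 alphas in the CD8-IFNγRKO library, or 15.8% (95% interval 15.0 to 16.7). The control library had 133 of 4888, or 2.72% (2.28 to 3.22). Counted once per TRB clone, 86 of 771 clones held a 2-alpha cell in the CD8-IFNγRKO library, 11.2% (9.02 to 13.6), against 37 of 440 in the control library, 8.41% (5.99 to 11.4). The intervals by clone overlap and those by cell do not. Those by cell count cells of a clone as independent, which they are not, so they are too narrow to compare the libraries.

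A few expanded clones held most of the 2-alpha cells. KO1 alone held 550 of the 1059 2-alpha cells of its library, or 51.9% (48.9 to 55.0), and KO1, KO2 and KO3 together held 929, or 87.7%. In the control library C1 held 54 of 133, or 40.6% (32.2 to 49.5), and the 3 clones with most 2-alpha cells held 84, or 63.2%. Without KO1 the share by cell in the CD8-IFNγRKO library was 8.61%, and without C1 that in the control library was 1.64%.

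Clones of 1 cell, which give each clone 1 chance, held 2 alphas in 74 of 692 cells of the CD8-IFNγRKO library, 10.7% (8.49 to 13.2), and in 28 of 360 of the control library, 7.78% (5.23 to 11.0). Clones of 2 to 9 cells held a 2-alpha cell in 5 of 50 and 5 of 48 cases. Clones of 10 to 99 cells did so in 4 of 18 cases, or 22.2% (6.41 to 47.6), and in 4 of 26, or 15.4% (4.36 to 34.9). Among the clones of 100 or more cells, 3 of 11 did in the CD8-IFNγRKO library and 0 of 6 in the control library, where a share of up to 45.9% is within the interval. Counted by clone, the intervals of the libraries overlap at every clone size.

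Large clones either had the pair in most of their cells or had it in none. The 8 other clones of 100 or more cells in the CD8-IFNγRKO library held 0 2-alpha cells among 3954, which allows a share of up to 0.0759%, and the 6 such control clones held 0 among 3414, which allows up to 0.0879%. These include the largest clone of each library, with 0 of 1624 cells in the CD8-IFNγRKO library and 0 of 1190 in the control library.

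**Figure D1:**
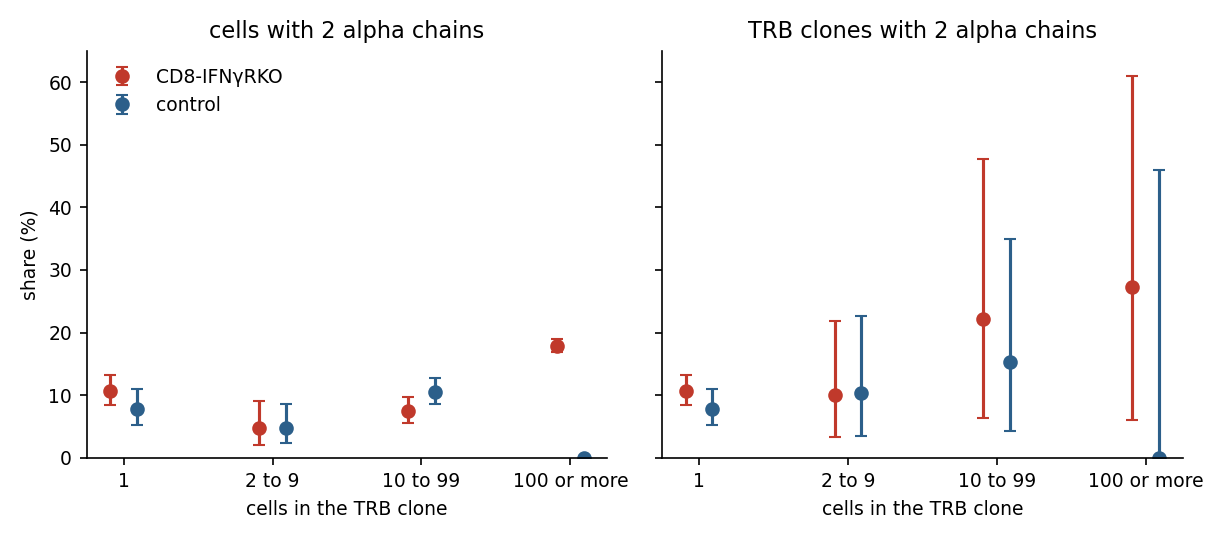
Share of cells (left) and of TRB clones (right) with 2 alpha chains, in percent, by the number of cells in the TRB clone, for the CD8-IFNγRKO (red) and control (blue) libraries; points are shares and bars exact 95% intervals of counting error. By clone the intervals of the 2 libraries overlap at every size, while by cell the share in clones of 100 or more cells was 17.9% in the CD8-IFNγRKO library and 0 of 3414 cells in the control library.

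Most 2-alpha cells shared their pair with other cells. In the CD8-IFNγRKO library 86 different pairs were found, and the 10 that were seen in 2 or more cells of a clone covered 983 of 1059 cells, 92.8% (91.1 to 94.3). In the control library 7 of 37 pairs were seen again and covered 103 of 133 cells, 77.4% (69.4 to 84.2). Among the pairs seen in 1 cell, 70 of 76 in the CD8-IFNγRKO library and 28 of 30 in the control library had alphas found with no other beta. In the remaining 6 and 2 cells an alpha of the pair also occurred with another TRB.

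KO1 had 781 cells with its beta, of which 550 held both alphas, 46 alpha A alone, 24 alpha B alone and 161 another alpha. That other alpha, TRAV7-4/TRAJ21, was the only alpha in all 161 cells. It had a median of 9 TRA UMIs per cell, and 125 of its 161 cells had at least 5. KO2 had 268 cells, 222 with both alphas, 38 with A and 8 with B, and KO3 had 179, with 157, 11 and 11. KO4, with TRBV20, TRAV12D-2/TRAJ7 and TRAV6N-6/TRAJ5, had 41 cells, of which 30 held both.

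The control clones were smaller. C1 had 76 cells, 54 with both alphas, 11 with A and 11 with B. C2, with TRBV26, TRAV5-4/TRAJ28 and TRAV9-4/TRAJ32, held both in 14 of 23 cells, and C3, with TRBV29, in 11 of 22. C4, with TRAV2/TRAJ31 and TRAV6-2/TRAJ12, held both in 16 of 21 cells and never alpha B alone. The 6 two-alpha clones of the CD8-IFNγRKO library held 1283 cells and the 6 of the control library 151. Apart from the KO1 cells with the other alpha, every cell of these 12 clones with 1 or 2 alphas carried alpha A, alpha B or both.

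The share of cells with both alphas ranged from 66.7% to 87.7% in the CD8-IFNγRKO clones and from 50% to 100% in the control clones. Just inside the 50% limit lay 2 control clones at 50%, with 11 of 22 and 3 of 6 cells. Just outside lay a control clone with 2 of 5 cells and CD8-IFNγRKO clones with 4 of 11 (36.4%) and 5 of 16 (31.2%).

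**Figure D2:**
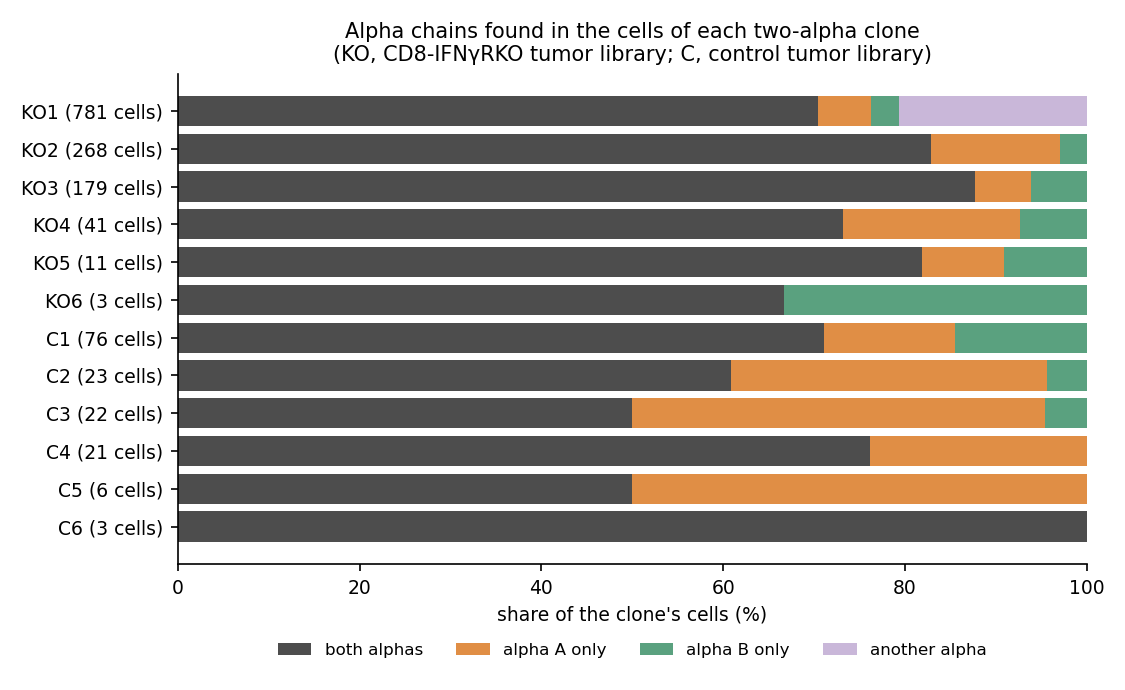
Alpha chains in each two-alpha clone: each bar is a clone, with its number of cells beside the name, and the colors give the share of its cells, in percent, with both alphas, alpha A alone, alpha B alone or another alpha. Both alphas were found in 50% to 100% of a clone's cells, and KO1 is the only one of the 12 with cells of another alpha, 161 of 781.

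In cells where both alphas were found, the 2 stood at similar levels. Cells in which an alpha was missed count as 1-alpha cells, so the shares hold for detected pairs only. By definition the alpha with fewer UMIs cannot hold the larger part. In 2-alpha cells the alpha with fewer UMIs held a median of 40% of the TRA UMIs in the CD8-IFNγRKO library (quartiles 33.3 and 45.5%) and 37.5% in the control library (30.8 and 44.4%). Within the clones the sum of alpha A over that of alpha B ranged from 1.02 in KO1 to 1.68 in KO5, and from 1.12 in C1 to 1.72 in C4. KO1 had 6638 UMIs of alpha A and 6526 of alpha B, with A ahead in 281 cells and B in 228. KO2 had 2946 and 2097, with A ahead in 156 cells and B in 49. So the balance differed between clones. In KO1 the sums were nearly equal, though alpha A was ahead in more cells than alpha B. The weaker alpha rested on 1 UMI in 21 of 1059 cells of the CD8-IFNγRKO library (1.98%) and in 5 of 133 of the control library (3.76%).

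Finding both alphas went with depth. In the two-alpha clones of the CD8-IFNγRKO library, leaving out the cells with the other alpha, both were found in 34.9% of the 63 cells with 1 to 4 TRB UMIs, 72.0% of 157 with 5 to 9, 86.9% of 382 with 10 to 19 and 96.7% of 520 with 20 or more. In the control clones the shares were 60% of 10, 57.1% of 49, 65.7% of 70 and 95.5% of 22 cells. In clones of 1 cell, the share with 2 alphas was 4.72%, 10.6%, 14.4% and 10% over the same steps in the CD8-IFNγRKO library and 4.35%, 5.92%, 12.0% and 16.7% in the control library. At each step the intervals of the libraries overlap for the clones of 1 cell.

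The TCR depth differed between the groups compared. The median number of TRB UMIs was 19 in 2-alpha and 15 in 1-alpha cells of the CD8-IFNγRKO library, and 11 and 13 in the control library. Among clones of 1 cell it was 10 against 8, and 10 against 7. With every cell thinned to 5 TRA UMIs, the expected share with 2 alphas was 19.4% of 4934 cells of the CD8-IFNγRKO library and 3.53% of 3277 of the control library, against 21.0% and 3.75% of the same cells before thinning. Thinning left out 1757 and 1611 shallower cells. In clones of 1 cell the thinned shares were 22% of 271 and 16.2% of 129 cells, against 22.9% and 17.1% of the same cells before thinning. A second alpha adds to the TRA UMIs a cell needed to be kept, so these shares cannot be set against those of all clones of 1 cell.

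**Figure D3:**
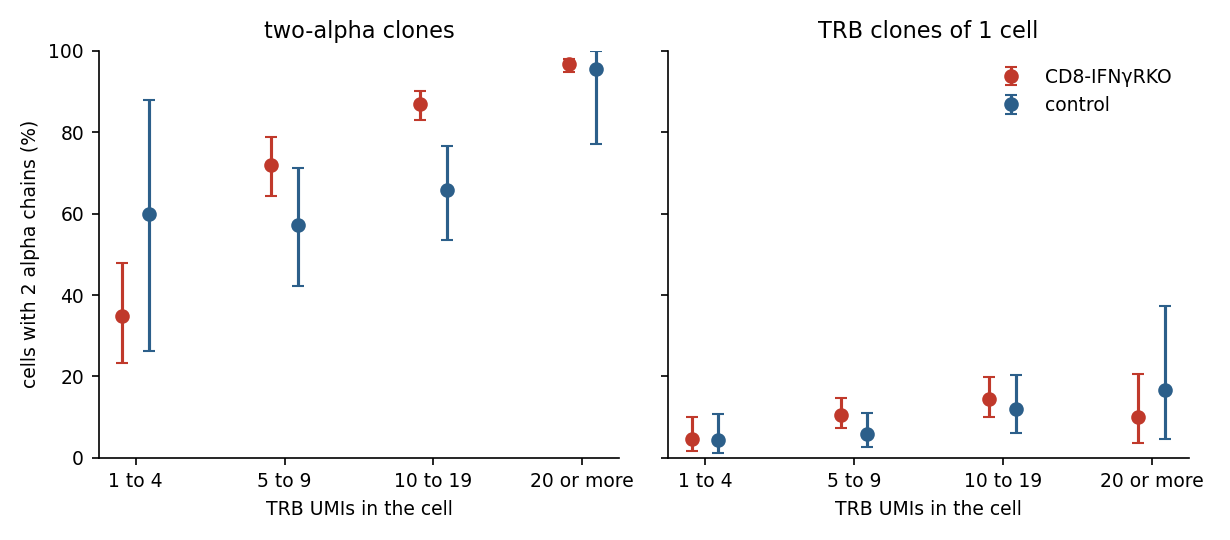
Share of cells with 2 alpha chains, in percent, by the number of TRB UMIs in the cell, in two-alpha clones (left, without cells of another alpha) and in TRB clones of 1 cell (right), for the CD8-IFNγRKO (red) and control (blue) libraries; bars are exact 95% intervals of counting error. In two-alpha clones both alphas were found in 96.7% and 95.5% of cells with 20 or more TRB UMIs.

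Pairs of beta chains were rarer. Cells with 2 betas and 1 alpha numbered 191 of 5823 in the CD8-IFNγRKO library, 3.28% (2.84 to 3.77), and 100 of 4855 in the control library, 2.06% (1.68 to 2.50). Counted by TRA clone they were 24 of 705, 3.40% (2.19 to 5.02), and 21 of 417, 5.04% (3.14 to 7.60). The interval by clone lies below that of the alpha pairs in the CD8-IFNγRKO library and overlaps it in the control library. A repeated pair of betas covered 171 of the 191 and 86 of the 100 cells. Cells with 2 of each chain numbered 8 and 4, and no barcode had 3 alphas. Nor did any barcode have 2 alphas without a beta or 2 betas without an alpha, though 206 and 160 had 1 alpha alone. The contig tables were filtered before they were deposited, and the part of this in these counts was not tested. No doublet caller was run, and the part of doublets in the 2-alpha cells was not tested.

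Over all cells, the 2-alpha cells were deeper than the 1-alpha cells in 1 library and shallower in the other, the control library, where depth differed widely between clones. After the per-cell filters of the study, 975 of 1059 2-alpha cells remained in the CD8-IFNγRKO library (92.1%) and 105 of 133 in the control library (78.9%), against 85.0% and 86.0% of the 1-alpha cells. Median UMIs per cell were 10457 in 2-alpha and 9782 in 1-alpha cells of the CD8-IFNγRKO library, and 4443 and 6173 in the control library. Of the 105 control 2-alpha cells 46 were of C1, and these had a median of 3502 UMIs. Cells with both alphas of C2, C3 and C4 had medians of 11024, 7288 and 6299. Cells with 2 betas had 9904 in the CD8-IFNγRKO and 7680 in the control library. Among clones of 1 cell the 2-alpha and 1-alpha cells had 4168 and 3970 in the CD8-IFNγRKO library and 4798 and 4033 in the control library.

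The J segments of a pair lay closer together than those of different clones. Over all pairs, counted once per clone, the J segments were a median of 7 segments apart in both libraries, whereas alphas of different 2-alpha clones were 15 and 16 apart. Repeated pairs had a median distance of 3 segments (10 clones) in the CD8-IFNγRKO library against 22 between those clones, and of 4 (7 clones) against 17.5 in the control library. Pairs seen in 1 cell had a median of 7 in both (76 and 30 clones), against 14 and 16 between clones. In all, 43.0% and 40.5% of pairs were within 5 segments, and 19.6% and 20.4% of the combinations between clones.

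Across the 86 clones of the CD8-IFNγRKO library Pearson's r of the 2 J numbers was 0.659 and Spearman's rho 0.655, and across the 37 control clones they were 0.821 and 0.762. The clones of a library share its depth and its animals. V segments showed less of this, with Pearson's r of their positions at 0.223 and 0.206. These positions are those of the V copy named by the assembly, which is uncertain, and the part of this was not tested. The 2 alphas used the same J segment in 6 and 1 clones and the same V gene in 5 and 2, KO1 and C1 being among them for J and V, respectively. The pairs drew on many segments: 40 V genes for the alpha with fewer UMIs in 86 clones and 26 in 37. CDR3 length did not stand apart, at a median of 42 bases for both alphas in the CD8-IFNγRKO library and 39 and 42 in the control library, against 42 in 1-alpha cells. No 2-alpha cell carried the invariant TRAV11/TRAJ18 alpha of NKT cells or TRAV1/TRAJ33 of MAIT cells, which allows up to 0.283% of the cells in the CD8-IFNγRKO library and up to 2.26% in the control library.

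**Figure D4:**
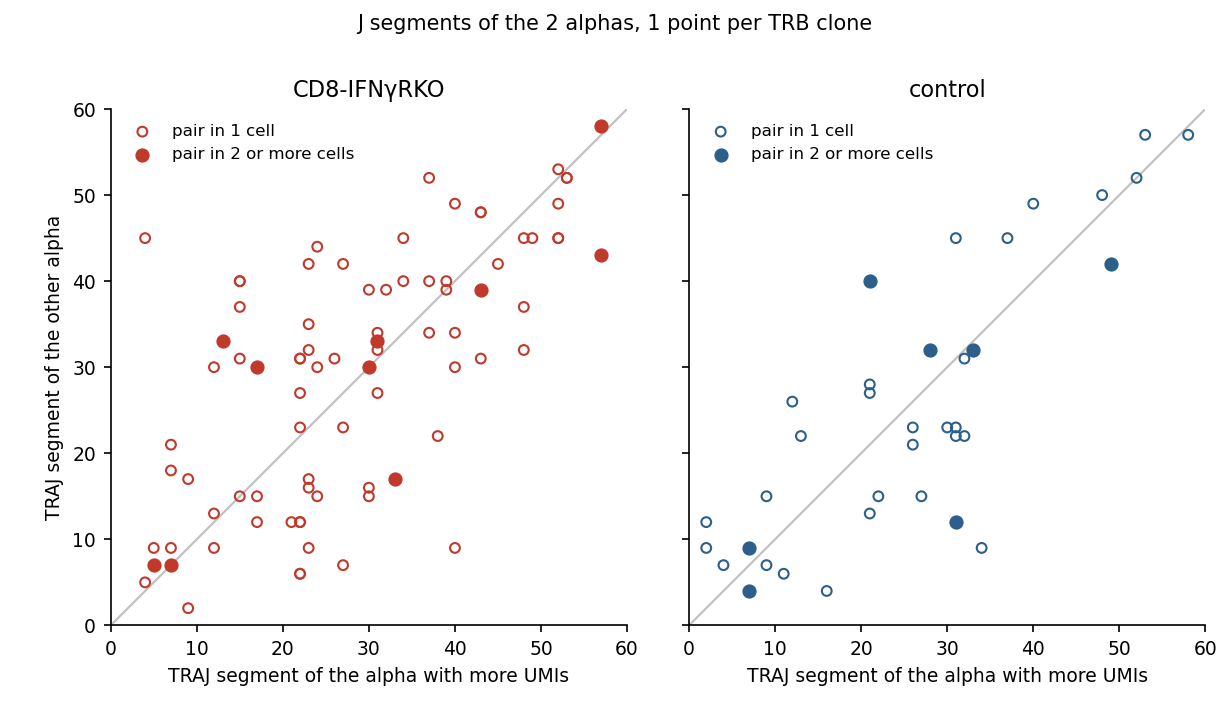
TRAJ segment number of the alpha with more UMIs (horizontal) against that of the other alpha (vertical), 1 point per TRB clone with 2 alphas, for the CD8-IFNγRKO (left, 86 clones) and control (right, 37 clones) libraries; filled points are pairs found in 2 or more cells, open points pairs found in 1 cell, and the grey line marks equal segments. Points lie along the line, with a median distance of 7 segments in both libraries.

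V gene transcripts in the transcriptome library gave a second readout of the alphas. It comes from the same droplets as the contigs that chose the cells, so it is not independent of them. A V gene was called readable if enough 1-alpha cells used it and enough of those cells had a UMI of it. Enough cells used 45 of 71 V genes in the CD8-IFNγRKO library and 38 of 65 in the control library. Of these, 33 and 25 were readable. This choice favors V genes whose transcripts are found often, so the shares below hold for readable genes only. Where readable, the V gene of the weaker alpha had a UMI in 599 of 600 cells with a repeated pair in the CD8-IFNγRKO library. These 600 cells came from 6 clones, and cells of a clone are not independent. Of cells whose alphas used other V genes, 0.725% had a UMI of the gene. The same held for pairs seen in 1 cell, with 21 of 21 cells against 0.763%. In the control library it was 11 of 11 cells from 4 clones and 7 of 7 cells from 7 clones, against 0.143% and 0.216%. The stronger alpha's V gene was found in 560 of 560 cells from 8 clones and in 19 of 19 cells in the CD8-IFNγRKO library. In the control library it was found in 30 of 30 cells from 4 clones and in 3 of 4 cells. Among the readable cases, the V transcripts of pairs seen in 1 cell were thus nearly as regular as those of repeated pairs. The part of doublets and of stray transcripts in these shares was not tested.

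Cells of a two-alpha clone with only 1 alpha contig often still held the transcript of the missing alpha. In KO2 cells with alpha A alone, *Trav6-7-dv9* of alpha B had a UMI in 27 of 35 cells, against 1.75% of other cells. In KO1 cells with alpha B alone, *Trav8d-2* of alpha A had one in 10 of 14. KO3 and KO4 cells with alpha A alone had the transcript of alpha B in 3 of 7 and 4 of 8 cells. The KO1 cells with the other alpha differ from these: *Trav8d-2* had a UMI in 0 of 133, against 524 of 524 KO1 cells with both alphas and 32 of 32 with alpha A alone. *Trav7d-5*, alpha B of KO1, cannot be read in this way, with 1 UMI in the 524 cells that carry it.

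In the CD8-IFNγRKO library few genes differed between the pooled 2-alpha and 1-alpha cells. Of 2894 genes with at least 50 CPM in a group and 100 UMIs, 22 differed by at least 0.5 on the log2 scale of CPM + 1 (0.76%), 4 higher (0.138%) and 18 lower (0.622%) in 2-alpha cells, and the median over all genes was 0.0050. Pooled UMIs of 975 and 4786 cells gave these values, so large clones weigh most, and cells of a clone are not independent. Without KO1 in either group 40 genes were past the fold, and with each TRB clone counted once 631 were, where clones of 1 cell weigh most. The genes farthest apart differed widely between clones.

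The highest were the predicted genes *Gm43305*, at 90.0 against 27.6 CPM (log2 ratio 1.67, interval 1.59 to 1.82), and *Gm4316*, at 147.5 against 49.6 CPM (1.55). KO1 and KO2 had *Gm43305* at 118.0 and 98.6 CPM, while KO3 had 0.579 and KO4 0, and the 16 one-alpha clones of at least 20 cells ranged from 0 to 150.7. *Gng10*, a G protein gamma subunit, and *Hist1h1a*, a linker histone, were 0.63 and 0.56 higher, and *Abcb9*, a lysosomal peptide transporter, was 0.47 higher, within the fold. The lowest were *Pkp3*, a plakophilin of desmosomes, at 31.2 against 155.7 CPM (−2.28, −2.48 to −2.16), and *Igfbp7*, a secreted insulin-like growth factor binding protein, at 24.96 against 80.3 CPM (−1.65). The osteopontin gene *Spp1* (−1.16), the decoy interleukin-1 receptor *Il1r2* (−1.11) and the protease inhibitor *Serpinb9b* (−1.09) followed. Each of these 5 had between 29.3% and 50.8% of its UMIs over both groups in 1 clone without any 2-alpha cell. Of the UMIs of all genes, the clone of 1200 cells that led for *Pkp3* and *Spp1* held 24.4%, against 32.5% and 29.3% of these genes, and the clone of 1463 cells that led for the other three held 28.3%.

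Of the 88 listed genes 10 were past the fold (11.4%), all of them lower in 2-alpha cells, against 0.76% of all genes compared. Listed genes needed only 20 UMIs and no CPM minimum. Within the fold stood 14 of 16 genes of the TCR complex and its proximal signaling (median log2 ratio 0.053), 11 of 11 inhibitory receptors and exhaustion genes (0.078), 13 of 13 proliferation genes (0.095), 9 of 9 interferon response genes (0.099) and 4 of 4 heat shock genes (0.017). *Trac*, the constant part of every alpha chain, stood at 267.6 against 220.4 CPM, a log2 ratio of 0.28 (0.22 to 0.34), and by clone at 188.8, 446.8, 253.1 and 153.0 CPM in KO1 to KO4 against 141.3 to 400.0 in one-alpha clones. *Pdcd1*, the PD-1 gene, was at 618.6 and 633.1 CPM, and *Tox*, a transcription factor of exhausted cells, at 125.2 and 96.8 (0.37). *Gzmb*, granzyme B, was at 5286 and 4908 CPM, and *Prf1*, perforin, at 968 and 1041. These immune genes lay within the fold.

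The 10 genes past the fold were in 4 lists. *Trbc1* and *Trbc2*, the beta constant genes, were lower by −1.36 and −0.85. They are near-identical copies, so their split is uncertain, and KO1 and KO4, which use TRBJ2 segments, had *Trbc1* at 2.75 and 0 CPM. Of 10 stem-like and naive-like genes 5 were lower (median −0.36), with the chemokine *Xcl1* at 66.3 against 134.1 CPM (−1.004, −1.13 to −0.91), the lymph node homing receptor *Ccr7* at 35.5 against 63.2 (−0.82), and *Il7r* and *S1pr1* at −0.65 and −0.54. *Tcf7*, the transcription factor of stem-like cells, was at 16.7 and 18.2 CPM (−0.12, −0.36 to 0.10). The list's median turned to 0.11 without KO1 and was −0.015 without clones of 1 cell in either group. Of 15 effector genes the granzymes *Gzme* (−0.89) and *Gzmf* (−0.64) were lower. Of 10 TCR-induced genes only *Egr3* was past the fold (−0.70), on 4 UMIs in 2-alpha cells.

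Clone by clone, most values of the two-alpha clones lay inside the range of the others. The range from the lowest to the highest of 16 clones would hold most values of any further clone, so the share inside does not measure likeness. KO1, KO2, KO3 and KO4 gave 352 values for 88 listed genes, of which 337 (95.7%) lay between the lowest and highest of the 16 one-alpha clones of at least 20 cells. *Gzmb* stood at 5766, 4344, 5403 and 5462 CPM against 2011 to 10848, *Pdcd1* at 636.2, 619.1, 553.1 and 695.0 against 430.9 to 809.9, and *Mki67*, a marker of cycling cells, at 194.5, 168.4, 165.6 and 200.7 against 94.2 to 219.5. *Xcl1* was at 57.4, 25.7 and 14.5 CPM in KO1 to KO3 and at 684.9 in KO4, where 1 cell held 76.6% of its UMIs and the level without that cell was 166.3. *Pkp3* had the fewest of the 4 clones in range, at 14.4, 20.6, 99.03 and 50.2 CPM against 56.0 to 284.2, so that 3 of 4 lay below every one-alpha clone. It was chosen as the lowest gene of the pooled 2-alpha cells, most of which belong to these clones. In the control library C1 and C2 lay within the range of the one-alpha clones, at 138.7 and 264.5 CPM against 8.27 to 299.6, and C3 was at 0. *Tcrg-C1* was found in KO2 only among the 4, with a UMI in 211 of 259 cells (281.9 CPM) and 0 in KO1, KO3 and KO4, while the one-alpha clones reached at most 3.25 CPM.

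KO2 and KO3 differed from KO1 in named genes. Between cells with both alphas, 170 of 3007 genes (5.65%) were past the fold in KO2 against KO1, 1.43% higher and 4.22% lower. In KO3 against KO1 they were 138 of 3009 (4.59%), 2.16% higher and 2.43% lower. *Eomes*, a transcription factor of effector and memory CD8 T cells, was at 60.7 CPM in KO2 and 62.6 in KO3 against 14.6 in KO1 (1.98 and 2.03). *Cd226*, a costimulatory receptor, was at 13.5 CPM in KO2 against 168.7 in KO1 (−3.55, −4.13 to −3.19), with a UMI in 31 of 218 KO2 cells and 397 of 524 KO1 cells. *Mgst2*, a glutathione transferase, was at 51.1 CPM in KO2 and 1.19 in KO1. *Areg*, the growth factor amphiregulin, was at 66.2 CPM in KO1 against 0.659 in KO2 and 4.298 in KO3, from 53 of 524 KO1 cells. In KO2, 5 of 9 interferon response genes were lower than in KO1 (median −0.57), and in KO3 none of the 9 was past the fold.

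Against KO1 cells with both alphas, more genes were past the fold for the KO1 cells with the other alpha than for KO2 or KO3. The pools were unlike, at 133 cells with the other alpha against 218 of KO2 and 148 of KO3, and a smaller pool has more counting error. With the same beta sequence, the cells with both alphas and those with TRAV7-4/TRAJ21 differed past the fold in 416 of 3148 genes (13.2%), 6.64% higher and 6.58% lower with both alphas. *Gm43305* had 694 UMIs, 117.9 CPM, in 524 cells with both alphas and 0 in 133 cells with the other alpha. *Gzmf* was at 239.8 against 4.35 CPM (5.49) and *Ifitm3*, an interferon-induced membrane protein, at 70.3 against 0.870 (5.25, 3.85 to 11.6). In the other direction *Xcl1* was at 57.2 against 1043 CPM (−4.16, −4.37 to −4.01), from 50 of the 133 cells, and *Crtam*, an adhesion receptor, at 19.7 against 106.1 (−2.37), while *Ccl1* (−5.36) came from 8 cells. By list, 8 of 13 proliferation genes were higher with both alphas (median 0.65), and 5 of 8 stem-like genes (median −1.26) and 5 of 9 TCR-induced genes (−0.57) were lower. The depth was 9970 and 7679 median UMIs per cell. The part of depth and of pool size in these values was not tested.

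Cells of KO1, KO2 and KO3 in which both alphas were found also differed from those with 1 of the pair, 890 against 103 cells, past the fold in 234 of 3063 genes (7.64%), 3.72% higher and 3.92% lower. Proliferation genes were higher in 6 of 13 (median 0.44) and effector genes in 7 of 15 (0.31), *Ccr7* was lower, at 19.1 against 68.1 CPM (−1.79, −2.30 to −1.35), and *Serpinb9b* was higher, at 71.4 against 27.0 (1.37). These are sister cells by beta and alpha, and the cells with both were deeper, with 9970 against 5858 median UMIs in KO1, 13108 against 6261 in KO2 and 9990 against 6155 in KO3. The part of depth was not tested.

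In the control library more genes were past the fold between 2-alpha and 1-alpha cells, but from a far smaller pool of 2-alpha cells. Of 3042 genes 275 were past the fold (9.04%), 153 higher (5.03%) and 122 lower (4.01%) in 2-alpha cells, around a median of 0.016. Only 105 cells stand behind the 2-alpha values, 46 of them from C1, and the intervals are wide. The CD8-IFNγRKO library had 975 such cells. A small pool has more counting error, so the counts of genes cannot be compared between the libraries. Without C1 in either group, which leaves still fewer 2-alpha cells, 327 of 3037 genes were past the fold (10.8%), 5.89% higher and 4.87% lower.

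C1 carried several of the largest values. *Serpinb1a*, a protease inhibitor, was at 251.2 CPM in 2-alpha against 31.0 in 1-alpha cells (2.98, 2.76 to 3.27), and 90.3% of its 2-alpha UMIs came from C1, where it reached 707.2 CPM in 32 of 65 cells, against 34.9 and 0 in C2 and C3 and at most 84.1 in the 19 one-alpha clones. *Smox*, spermine oxidase, was at 59.97 against 16.4 CPM (1.81), with 78.4% of its UMIs in C1. *Nr4a1*, an early target of TCR signaling, was at 1020 CPM in C1, 289.5 in C2 and 86.7 in C3, against 84.2 to 852.4. In the other direction C1 had *Pdcd1* at 255.1 CPM, below every one-alpha clone (659.1 to 1014), with C2 and C3 at 768.6 and 882.9. *Gzmb* was at 1047 CPM in C1, 2810 in C2 and 4462 in C3, against 1675 to 4589, and *Tox* at 4.48, 39.9 and 157.7 against 48.6 to 218.5. For these 6 genes C1 lay outside the range of the one-alpha clones, and over all 3 clones 211 of 264 values for listed genes (79.9%) lay within the range of the one-alpha clones. C1 was also the shallowest control clone, with a median of 3315 UMIs per cell, and the part of depth in these values was not tested.

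A single cell carried the antigen presentation genes. *H2-Aa* (59.97 against 5.16 CPM, 3.31) and *Cd74* (132.9 against 24.8, 2.38), both of MHC class II presentation, were among the 5 highest, but 1 cell of C1 held 35 of the 37 *H2-Aa* UMIs, 81 of the 82 *Cd74* UMIs and all 59 of *Lyz2*, the lysozyme gene of myeloid cells. Without it the level was 3.29 CPM for *H2-Aa* and 1.65 for *Cd74*, and 270 of 3020 genes (8.94%) were past the fold, 4.9% higher and 4.04% lower. The study also removed a cluster with macrophage transcripts, a step not applied here. That cell also held 4 *Cd8a* UMIs and 3 UMIs of the myeloid marker *Csf1r*, the most of any control 2-alpha cell. It held 9354 UMIs in all, against a median of 3502 in C1 cells with both alphas, and 18 of the 105 cells were as deep.

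C1 also lacked the Y-linked transcripts. It had 0 UMIs of *Ddx3y*, *Eif2s3y*, *Kdm5d* and *Uty* among 223424, which allows up to 13.4 CPM, while the other 21 control clones of at least 20 cells had 100.6 to 223.5 CPM in sum and all 21 of the CD8-IFNγRKO library 47.9 to 164.9. The mice of a library were pooled, so the clone and its animal cannot be told apart.

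By list, pooled control 2-alpha cells were higher in stem-like and naive-like genes and lower in part of the effector and inhibitory genes. Both the stem-like and the effector median changed sign with each TRB clone counted once. Of the 88 listed genes 30 were past the fold (34.1%), against 9.04% of all genes compared. Listed genes needed only 20 UMIs and no CPM minimum, so the 2 shares have unlike limits. Of 10 stem-like genes 8 were higher and 1 lower (median 1.35). Among the higher, *Id3* and *Slamf6* had only 7 and 10 UMIs in 2-alpha cells. *Tcf7* was at 58.4 against 14.1 CPM (1.97, 1.51 to 2.54) and *Ccr7* at 147.5 against 55.8 (1.39). *S1pr1*, the receptor for leaving tissue, was at 34.04 against 6.94 (2.14). Of 15 effector genes 7 were lower and 2 higher (median −0.47), with *Ccl3*, a chemokine, at 197.7 against 503.1 CPM (−1.34, −1.62 to −1.09), *Prf1* at 598.1 against 1170 (−0.97) and *Gzmk* at 192.9 against 126.4 (0.61). Of 11 inhibitory and exhaustion genes 5 were lower and 1 higher (median −0.41), *Entpd1*, which encodes CD39, at −0.89 among them. With each TRB clone counted once, the effector median was 0.12 and the inhibitory median −0.077, and over clones of at least 20 cells, each counted once, they were −0.097 and −0.18. Of 10 TCR-induced genes 5 were higher (median 0.44), but without C1 1 was higher and 3 lower (median −0.26). Proliferation (0 of 13), interferon response (0 of 9) and heat shock genes (0 of 4) were not past the fold. *Cd5*, a brake on TCR signaling, was the 1 of 16 genes of the TCR complex list past it, at 94.0 against 193.5 CPM (−1.03).

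The stem-like values depended on the weight of small clones. Clones of 1 cell made up 13.3% of the control 2-alpha cells and 3.65% of the 1-alpha cells, and gave 23 of 36 and 280 of 422 *Tcf7* UMIs. With repeated pairs alone the median of the list was 0.021, without C1 it was 1.37, and with each TRB clone counted once it was −0.34. In the CD8-IFNγRKO library clones of 1 cell made up 4.21% of 2-alpha and 6.06% of 1-alpha cells. With repeated pairs alone the list's median there was −0.99. The restriction to repeated pairs takes clones of 1 cell out of the 2-alpha cells alone, while the 1-alpha cells keep theirs. Without clones of 1 cell in either group, the median was 0.58 in the control library and −0.015 in the CD8-IFNγRKO library. *Tcf7* in C1 itself was at 107.4 CPM, from 15 of 65 cells, against at most 25.3 in one-alpha clones, and *Ccr7* of C1 came from 1 cell, with 17 UMIs.

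Among the lowest genes of the control 2-alpha cells, *Ifitm1*, an interferon-induced membrane protein, had 0 UMIs against 5023 (168.3 CPM), of which 42.5% came from 1 clone of 519 cells. *Areg* was at 16.2 against 129.9 CPM (−2.93, −4.06 to −2.12), *Ccrl2*, an atypical chemokine receptor, at 13.0 against 92.4 (−2.74), *Mt2*, a metallothionein, at 30.8 against 110.4 (−1.81), and *Wls*, needed for Wnt secretion, at 19.4 against 56.2 (−1.48). In each of these 4, between 30.2% and 47.8% of the UMIs came from 1 clone without 2-alpha cells. Of the UMIs of all genes, the clone of 1009 cells that led for *Areg*, *Ccrl2* (33.4%) and *Mt2* (30.2%) held 27.9%, and that of 1104 cells that led for *Wls* (39.6%) held 26.2%, while the clone of 519 cells that led for *Ifitm1* held 13.98%.

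Past the fold were 22 genes of the CD8-IFNγRKO library (0.76%) and 275 of the control library (9.04%), which limits how many can be shared. Of 2689 genes compared in both, 7 were past the fold in the same direction in both libraries. *Hist1h1a* was higher, and *Igfbp7*, *Spp1*, *Mt2*, *Gldc*, *Gzme* and *Gzmf* were lower in 2-alpha cells. These are pooled values. By clone, in the CD8-IFNγRKO library, the median of the 4 two-alpha clones lay above that of the 16 one-alpha clones for *Gzme*, at 32.3 against 2.15 CPM, for *Gzmf*, at 192.2 against 107.8, and for *Igfbp7*, at 30.3 against 24.8. For *Spp1* it lay below, at 36.7 against 89.6 CPM, and for *Mt2* and *Gldc* slightly below, at 107.6 against 123.8 and 26.8 against 28.6. For *Hist1h1a* it lay above, at 91.4 against 61.5 CPM. In the control library, with 3 two-alpha and 19 one-alpha clones, the *Hist1h1a* median lay below instead, at 23.7 against 28.8 CPM. The control medians of the other genes also lay below. *Ccr7* and *Serpinb6a* were past the fold in opposite directions. *Rag1*, *Rag2* and *Dntt*, which rearrange the receptor genes and add bases at the joints, had 0 UMIs in every group.

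Clones of 1 cell allow 2-alpha and 1-alpha cells to be compared without the weight of expanded clones, though on 41 against 290 cells in the CD8-IFNγRKO library and 14 against 149 in the control library. Past the fold were 296 of 2027 genes (14.6%) in the CD8-IFNγRKO library, 5.77% higher and 8.83% lower, and 221 of 1004 (22%) in the control library, 10.2% higher and 11.9% lower. *Tcf7* was at 466.8 CPM in the 41 2-alpha cells, with a UMI in 32 of them, and at 496.6 in the 290 1-alpha cells. Control cells had it at 304.9 and 389.4 CPM, respectively. The median of the stem-like list was −0.27 and −0.25 in the 2 libraries, with 2 of 10 and 1 of 10 genes lower. The proliferation list was higher in 9 of 11 genes (median 1.05) and in 11 of 11 (1.54). Those values rested on few cells: 3 cells held 76.0% and 92.2% of the list's UMIs, and *Mki67* was found in 4 of 41 against 22 of 290 cells, 9.76% (2.72 to 23.1) and 7.59% (4.82 to 11.3), and in 2 of 14 against 8 of 149. A difference in the share of cycling cells was not detectable at this depth. In the control library *Ccl4*, a chemokine at 2399 CPM, had 180 of its 181 UMIs from 1 cell.

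**Figure D5:**
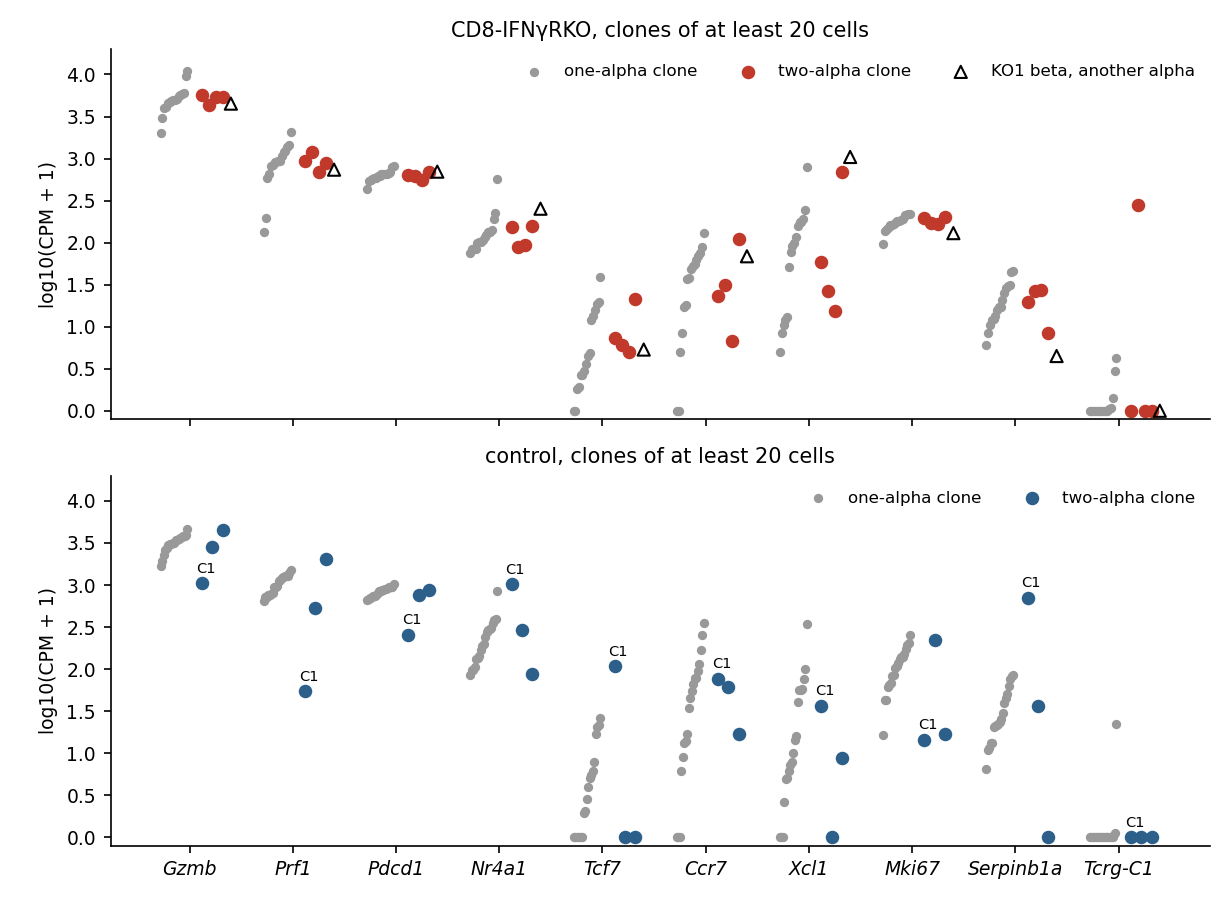
Pooled expression, as log10(CPM + 1), of 10 genes in each clone of at least 20 cells of the CD8-IFNγRKO library (top) and the control library (bottom); grey points are one-alpha clones, colored points two-alpha clones, and the open triangle the KO1 cells with another alpha. C1 lies below every one-alpha clone for *Gzmb*, *Prf1* and *Pdcd1* and above every one for *Nr4a1*, *Tcf7* and *Serpinb1a*. For *Mki67* C1 lies just below them, at 13.4 CPM from 2 of 65 cells against 15.3 in the lowest. KO2 is the only two-alpha clone with *Tcrg-C1*.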

How the data were processed

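Transcriptomes and TCR contigs of sorted CD8 T cells from tumors at day 12 were analysed, 1 library of each kind per genotype; the lymph node libraries, which have no TCR table, were used only to count shared barcodes. The authors deposited UMI counts per gene and cell and filtered contig tables, made with Cell Ranger 6.0.0 on the mouse genome mm10, and the contig tables give UMI counts per contig. The sources name no doublet step, and none was run here. Cells were joined by barcode, and 27 of the 5947 control TCR barcodes, none of a 2-alpha cell, had no transcriptome. As in the study, cells were removed if they lacked a UMI of *Cd8b1*, *Cd8a* or *Cd2*, if mitochondrial genes held over 3% or any 1 gene over 20% of UMIs, or if fewer than 200 or more than 6000 genes were detected. The study's later removal of a cluster contaminated by macrophages was not applied.

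Expression was pooled UMIs scaled to CPM, as the log2 ratio of CPM + 1, and a gene was called past the fold at an absolute value of at least 0.5; no gene was tested, since each group is 1 library. Intervals are exact (95%): Clopper-Pearson for shares and conditional binomial for ratios, the latter without the pseudocount, and a count of 0 is given the limit of 3 counts. They cover counting error only. Named genes were all members of the listed groups with at least 20 UMIs and the 5 highest and 5 lowest ratios per library among genes with at least 50 CPM in a group and 100 UMIs, leaving out TCR segments, mitochondrial and ribosomal protein genes; other genes named were the extremes of comparisons within clones or were chosen after their values were seen. The values of 1 listed gene, which counts in its list, are not reported here. The cell group, gene lists and comparisons were chosen with earlier results of these data known. V and J positions are from RefSeq (GRCm38.p6). Depth was 93995655 and 59497796 UMIs in the filtered CD8-IFNγRKO and control cells. Python 3.11.15 with numpy 2.4.6, scipy 1.17.1 and pandas 2.3.3 was used, and the scripts were tested on simulated data. Alternatives covered contig UMIs, filters, clone definition, clone weights, pseudocount and thinning.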

Additional observations from a re-analysis of the deposited data

Results flagged for a closer look

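*Ccr7*, *Il7r*, *S1pr1* and *Egr3* were past the fold in opposite directions in the 2 libraries. The difference between libraries was not tested. The log2 ratio of 2-alpha over 1-alpha cells in the CD8-IFNγRKO and the control library was −0.82 and 1.39 for *Ccr7*, −0.65 and 0.64 for *Il7r*, −0.54 and 2.14 for *S1pr1*, and −0.70 and 1.16 for *Egr3*. *Egr3* rests on 4 UMIs of 2-alpha cells in each library. Clones of 1 cell gave 62 of the 91 control 2-alpha UMIs of *Ccr7*, 22 of the 56 of *Il7r* and 7 of the 21 of *S1pr1*. Over all 65 cells of C1, *S1pr1* was at 93.99 CPM, from 14 cells, against 0 in C2 and C3 and at most 25.3 in one-alpha clones. *Egr3* had 4 UMIs in C1, from 2 cells, and 0 in C2 and C3. *Ccr7* and *Il7r* in C1, at 76.1 and 89.5 CPM, lay within the range of the one-alpha clones. In the CD8-IFNγRKO library all 4 two-alpha clones lay within the range of the one-alpha clones for each of the genes. The medians of the two-alpha and one-alpha clones there were 30.3 and 32.8 CPM for *Il7r* and 2.09 and 2.30 for *S1pr1*. They were 26.4 and 42.4 for *Ccr7* and 0.162 and 1.27 for *Egr3*.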

How the results depend on the processing

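No paired analysis was possible because each genotype has 1 library, and for the same reason no replicate could be left out. Of 305 values recomputed under 26 settings, 256 stayed within their interval, within 1.5 times the reported count or, for log2 values, within 0.5 of the reported value. Of 168 list medians 28 had the other sign, 27 of them with both values nearer 0 than 0.5. The list median of stem-like genes in the control library changed sign to −0.34 with each TRB clone counted once, against 1.35, and that of effector genes to 0.12, against −0.47. That of TCR-induced genes changed to −0.26 without C1, against 0.44. In the CD8-IFNγRKO library the share of 2-alpha cells was 16.9% in cells passing the filters, 20.9% without the largest clone, 19.4% thinned to 5 TRA UMIs and, by settings chosen after seeing the data, 8.61% without KO1 and 10.7% in clones of 1 cell. The share of clones was 8.32% with at least 3 UMIs per contig, and that of cells with a repeated pair 96.2% at 3 UMIs, 95.5% in filtered cells and 85.1% without KO1. In the control library the share of 2-alpha cells was 2.17% at 3 UMIs, 3.597% without the largest clone, 3.53% thinned, 1.64% without C1 and 7.78% in clones of 1 cell, and repeated pairs covered 62.0% without C1. The V transcript of the weaker alpha, over all V genes, unreadable ones included, was found in 65.1% and 89.3% of cells, and in 68.3% and 73.3% of those without a repeated pair. Genes past the fold numbered 22 in the CD8-IFNγRKO library, but 631 with each clone counted once, 3 at 200 CPM, 233 without a CPM minimum and 40 without KO1. The 275 control genes became 437 with per-cell means, 1133 with each clone counted once, 38 at 200 CPM and 2288 without a minimum. The cause was not tested.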
